A study of Oryza sativa with 2 samples.

Results

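A set of 7 rice genes of the pathogen response was followed in leaf RNA, namely the pathogenesis-related (PR) genes *PR1a*, *PR1b*, *PR10a*, *PR10b*, *PR5* and *Cht1*, and their regulator *NPR1*. They were picked by locus ID and not by a rule on their level, but with earlier results of these data known. Each of the 7 IDs was found in 1 entry of the deposited table, which holds 42152 entries. Leaves came from 4-week-old plants, and each genotype gave 1 library. The wild-type was the *indica* cultivar Zhongjiazao 17, and *yl-1* is a yellow-leaf mutant of it from an EMS-induced mutant library. EMS (ethyl methanesulfonate) makes many base changes, so *yl-1* may carry changes outside *YL-1*. The labels have both libraries from seedlings raised on an MS-based medium at 26°C, with 12 h of light at 300 μmol m−2 s−1 and 12 h of dark, and name no infection or elicitor. No source used here says how many plants made up a library.

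The values are FPKM, in which fragment numbers are divided by transcript length and by the mapped total. They can therefore be compared between genes of a library, while a comparison between libraries also rests on how these are scaled to each other. FPKM summed to 738866 in the WT-labelled library and 823855 in the *yl-1*-labelled library, with 20902 and 19955 entries above 0. The number of fragments is unknown, so no counting interval is given, and since each genotype has 1 library, replicate error, SD and tests cannot be had. The leaf origin was visible in both libraries. *PsbO* (LOC_Os01g31690) of photosystem II stood at 3824 and 5206 FPKM, and *YL-1* (LOC_Os01g17170), the mutated gene, at 671 and 1124 FPKM. The genotype names are uncertain. For 24 selected genes that a supplementary table of the study also prints, 18 of the values under *yl-1* equalled the deposited wild-type column within 0.0051 FPKM, 23 of those under wild-type equalled the deposited *yl-1* column, and 0 equalled the column of the same name. The libraries are therefore called WT-labelled and *yl-1*-labelled here, after the deposited columns, and every direction turns around if the columns are exchanged. Which naming is right cannot be told from the deposited values. Values at 0 in both libraries and the order of genes within a library do not depend on the names.

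Plants answer many pathogens through salicylic acid. NPR1, best known from *Arabidopsis*, is a co-activator that responds to salicylic acid and works with TGA transcription factors to switch on PR genes. Several PR proteins act on the pathogen or its cell wall. PR1 proteins are small secreted proteins often used as markers of the response, PR5 proteins are thaumatin-like, chitinases such as Cht1 cut the chitin of fungal walls, and PR10 proteins stay inside the cell. In rice, *PR10a* is also called *PBZ1*, after the compound probenazole that induces it, and *NPR1* is also called *NH1*. In healthy leaves most PR genes are known to be weakly expressed.

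Only *NPR1* and *PR10a* were clearly read in these leaves. They were the 2 of the 7 genes that reached a mean of 1 FPKM over both libraries, the level from which ratios were formed. Of all 42152 entries, 14559 (34.5%) reached it, and beside this share a count of 2 of 7 says little about PR genes. Of the other 5 genes, 2 were listed at 0 in both libraries, 2 were listed at 0 in 1 library, and 1 was under 1 FPKM in both. Neither of the 2 genes compared was past 2-fold (0 higher and 0 lower). In the table as a whole, 364 of 14559 entries with a mean of at least 1 FPKM (2.50%) were at least 2-fold higher in the *yl-1*-labelled library and 531 (3.65%) at least 2-fold lower. With 2 genes, a count of 0 says little beside these shares. In whole leaves, fewer cells of a type and less RNA per cell cannot be told apart.

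**Figure D1:**
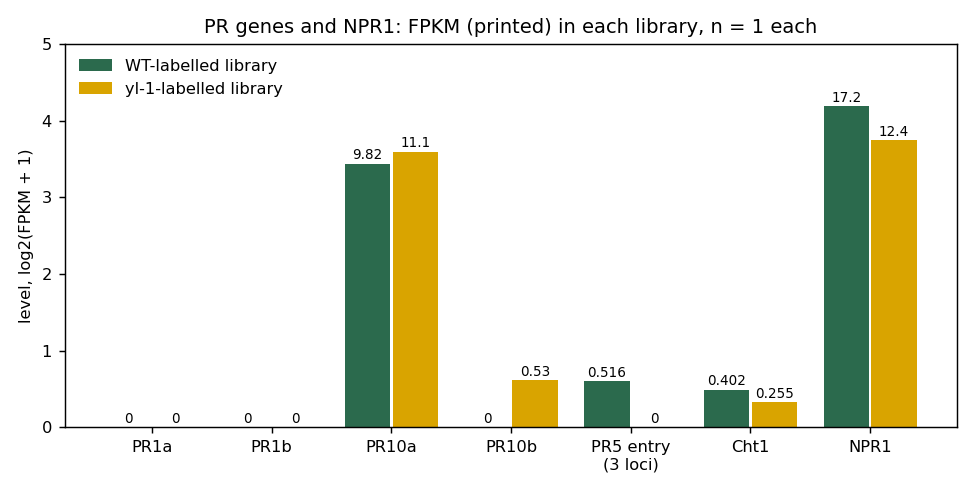
Level of each gene as log2(FPKM + 1), with the FPKM printed over each bar, in the WT-labelled library (green) and the *yl-1*-labelled library (yellow), 1 library each and so without error bars. *NPR1* and *PR10a* lie between 9.82 and 17.2 FPKM, and the other 5 genes lie under 0.6 FPKM or at 0.

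No *PR1* transcript was measured in either library. *PR1a* (LOC_Os07g03710, chromosome 7) was listed at 0 FPKM in the WT-labelled library and at 0 FPKM in the *yl-1*-labelled library. *PR1b* (LOC_Os01g28450, chromosome 1) was likewise listed at 0 FPKM in both. No ratio can be formed for these markers of the response, and since the depth is unknown, low levels cannot be set apart from none. The genome build and the treatment of fragments with several matches are not given either, and their part in these values at 0 was not tested. A value of 0 was common, since 20458 of all 42152 entries (48.5%) were listed at 0 in both libraries. Most loci around *PR1a* were listed at 0 too. Of the 15 other entries whose locus number lies within 100 of it, 14 were listed at 0 in both libraries, and the other was at 0 FPKM in the WT-labelled library and 0.0980 FPKM in the *yl-1*-labelled library. Several of these 15 entries are also on the list of *PR1*-like IDs given below, so the same values at 0 are counted in both places. Around *PR1b*, 6 of 8 such entries were listed at 0 in both.

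The *PR10* genes stood at unlike levels. *PR10a* (LOC_Os12g36880, chromosome 12) stood at 9.82 FPKM in the WT-labelled library and at 11.1 FPKM in the *yl-1*-labelled library. It lay above 70.8% and 71.9% of the entries above 0 in the same libraries. Its log2 ratio, taken after adding 1 FPKM to each value, was 0.16, or 1.12-fold higher in the *yl-1*-labelled library. Of the 5100 entries with a mean of 10 to 100 FPKM, 64.1% differed by at least as much in either direction. The sign of this ratio rests on the scaling of the libraries. With both libraries brought to the same FPKM sum it was 0.014, and it was -0.0066 in a setting chosen after seeing the data, with the *yl-1*-labelled values divided by 1.13, the most frequent ratio among entries with a mean under 0.1 FPKM.

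*PR10b* (LOC_Os12g36850), which stands near *PR10a* in the locus numbering of chromosome 12, was listed at 0 FPKM in the WT-labelled library and at 0.530 FPKM in the *yl-1*-labelled library. It was therefore read in 1 library only, far under *PR10a*. Of the 7135 entries above 0 in at least 1 library but with a mean under 1 FPKM, 2403 (33.7%) were likewise listed at 0 in 1 library. Between *PR10b* and *PR10a* lie 2 entries, and both were listed at 0 in the 2 libraries. Genes of a family can share stretches of sequence, and how fragments matching more than 1 of them were assigned is not given in the sources used here, so the division of reads among *PR10* genes is uncertain.

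The thaumatin-like and chitinase genes were near the lower end of what was read. *PR5* (LOC_Os12g43430, chromosome 12) shares its entry with the loci LOC_Os12g43380 and LOC_Os12g43390, so its own level cannot be separated. That entry was at 0.516 FPKM in the WT-labelled library and listed at 0 FPKM in the *yl-1*-labelled library, the reverse of *PR10b*. *Cht1* (LOC_Os06g51060, chromosome 6) was above 0 in both libraries, with 0.402 FPKM in the WT-labelled library and 0.255 FPKM in the *yl-1*-labelled library. It lay above 19.7% and 12.3% of the entries above 0. Both entries were under the level at which ratios were formed, and no direction is read from values this low.

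*NPR1* (LOC_Os01g09800, chromosome 1) had the highest level of the 7 genes in both libraries. It stood at 17.2 FPKM in the WT-labelled library and at 12.4 FPKM in the *yl-1*-labelled library, above 80.1% and 73.9% of the entries above 0. Its log2 ratio was -0.44, or 1.36-fold lower in the *yl-1*-labelled library. Under the 9 alternatives run for it the ratio lay between -0.61 and -0.35. Its sign could not change in them. A pseudocount leaves the sign as it is, and every scaling lowered the *yl-1*-labelled values. Among the 5100 entries with a mean of 10 to 100 FPKM, 14.3% had a ratio as low or lower and 25.2% differed by at least as much in either direction. In this range of level 1.41% of entries were at least 2-fold higher and 2.94% at least 2-fold lower. *NPR1* lay inside the 2-fold band.

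A comparison within a library does not depend on how the libraries are scaled to each other. *NPR1* exceeded *PR10a* by 1.75 times in the WT-labelled library and by 1.12 times in the *yl-1*-labelled library. The regulator and the PR gene stood closer together in the latter, with no replicate to give the error of either value. In the plot of all entries, *PR10a* lies just above the line of equal values and *NPR1* just below it, while the other 5 genes lie in the corner near 0.

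**Figure D2:**
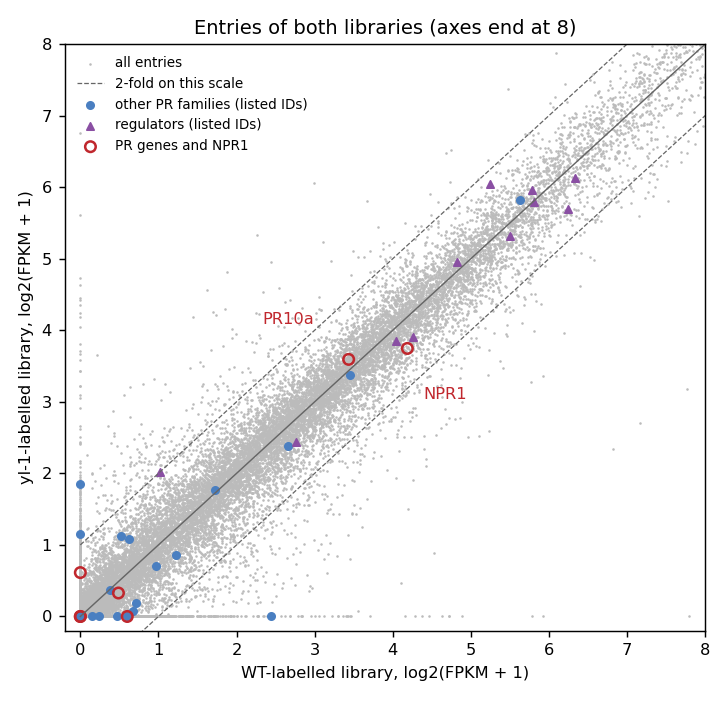
Every entry of the table (grey) by its log2(FPKM + 1) in the WT-labelled library (x axis) and the *yl-1*-labelled library (y axis), with axes that end at 8, so that more abundant entries are not drawn. Red circles are the 7 genes, blue points other PR families, purple triangles the regulators, the solid line equal values and the dashed lines a 2-fold difference on this scale. *PR10a* and *NPR1* lie between the dashed lines.

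The wider *PR1* family was mostly listed at 0 as well, and the other PR families were near the share of all entries. Lists of locus IDs were drawn up from general knowledge of rice gene names, with earlier results of these data known. No source used here pairs these IDs with names, so they are given as lists only. The 6 PR family lists held 52 further entries, and 34 of them (65.4%) were listed at 0 in both libraries, beside 48.5% of all entries. Of the 22 *PR1*-like entries, 20 were listed at 0 in both, several of them already counted around *PR1a*. Without the *PR1*-like entries, the other 5 lists had 14 of 30 (46.7%). The count was 2 of 4 for *PR10*-like, 2 of 6 for thaumatin-like, 4 of 7 for chitinase, 4 of 8 for glucanase (PR2) and 2 of 5 for PR4 entries. In all, 7 of the 52 entries reached a mean of 1 FPKM, beside 34.5% of all entries, and 1 of the 7 was *PR1*-like. Of these 7 entries, 3 were higher and 4 lower in the *yl-1*-labelled library. Their median log2 ratio was -0.076, beside 0.014 over all 14559 entries compared.

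The glucanases, which cut the glucans of fungal walls, held the most abundant PR transcript of the lists, with 48.6 FPKM in the WT-labelled library and 55.3 FPKM in the *yl-1*-labelled library. All 3 glucanase entries compared lay within 2-fold, from -0.28 to 0.18 on the log2 scale. The chitinase list reached at most 0.593 and 0.292 FPKM, and the PR4 list at most 0.951 and 1.18 FPKM. Among list entries with a mean of at least 1 FPKM, those past 2-fold were thaumatin-like, 1 in each direction, and each was listed at 0 in 1 library (0 and 2.59 FPKM for the higher, 4.43 and 0 FPKM for the lower).

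The listed regulators were read throughout, unlike most entries of the PR lists. All 11 were above 1 FPKM in both libraries, while 34.5% of all entries reached a mean of 1 FPKM. These lists were drawn up with earlier results known, and how much of the contrast comes from the choice of IDs was not tested. The list of *NPR1* relatives and partners (6 entries) covered *NPR1*-like genes, a gene for an NPR1-binding repressor and TGA factors. Of these, 5 were lower in the *yl-1*-labelled library and 1 was higher, with a median log2 ratio of -0.20. The 5 lower entries ran from -0.35 to -0.017, and the higher one, at 1.04 and 3.04 FPKM, had 0.99. These values differ 2.93-fold as deposited, and the log2 ratio stays under 1 through the 1 FPKM added to each. The mean of the list was -0.015, near 0, against this median. The list of salicylic acid signalling (5 entries) covered genes of defence signalling that act before or beside NPR1. Of these, 3 were higher and 2 lower, from -0.56 (75.0 and 50.6 FPKM) to 0.79 (37.0 and 64.7 FPKM). Its median was 0.12, and it turned to -0.030 when the libraries were brought to the same FPKM sum. On this scale 0 of the 11 regulators were past 2-fold in either direction, beside 2.50% of all entries compared for higher and 3.65% for lower. With a pseudocount of 0.1 or 0.01 FPKM or none, a choice made after seeing the data, the count was 1 higher and 0 lower. The higher one was the entry at 1.04 and 3.04 FPKM on the list of *NPR1* relatives and partners.

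**Figure D3:**
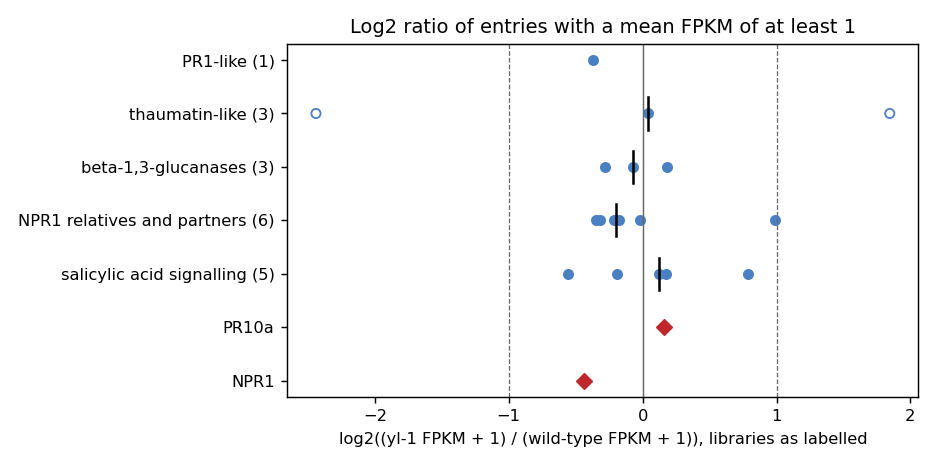
Log2((*yl-1* FPKM + 1) / (wild-type FPKM + 1)) for *PR10a* and *NPR1* (red diamonds) and for the list entries with a mean of at least 1 FPKM (blue, number of entries in brackets). Open circles are entries listed at 0 in 1 library, black bars the medians of lists with at least 3 entries, and dashed lines a 2-fold difference. *NPR1* at -0.44 lies lower than every entry on the list of its relatives and partners. Entries of other lists lie lower still, at -0.56 (salicylic acid signalling) and -2.44 (thaumatin-like, listed at 0 in 1 library). *PR10a* at 0.16 lies near 0.

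Entries within 100 locus numbers of the other genes were listed at 0 in both libraries about as often as all entries (48.5%), or somewhat less or more often, and no difference was tested. The count was 5 of 17 around *NPR1*, 7 of 17 around *PR10b*, 9 of 17 around *PR10a* and 9 of 15 around *PR5*. Around *Cht1* it was 8 of 17, although *Cht1* itself stayed under 1 FPKM and an entry at 424 and 754 FPKM lay among its neighbours. Locus numbers give the order of genes along a chromosome and not a distance in bases.

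**Figure D4:**
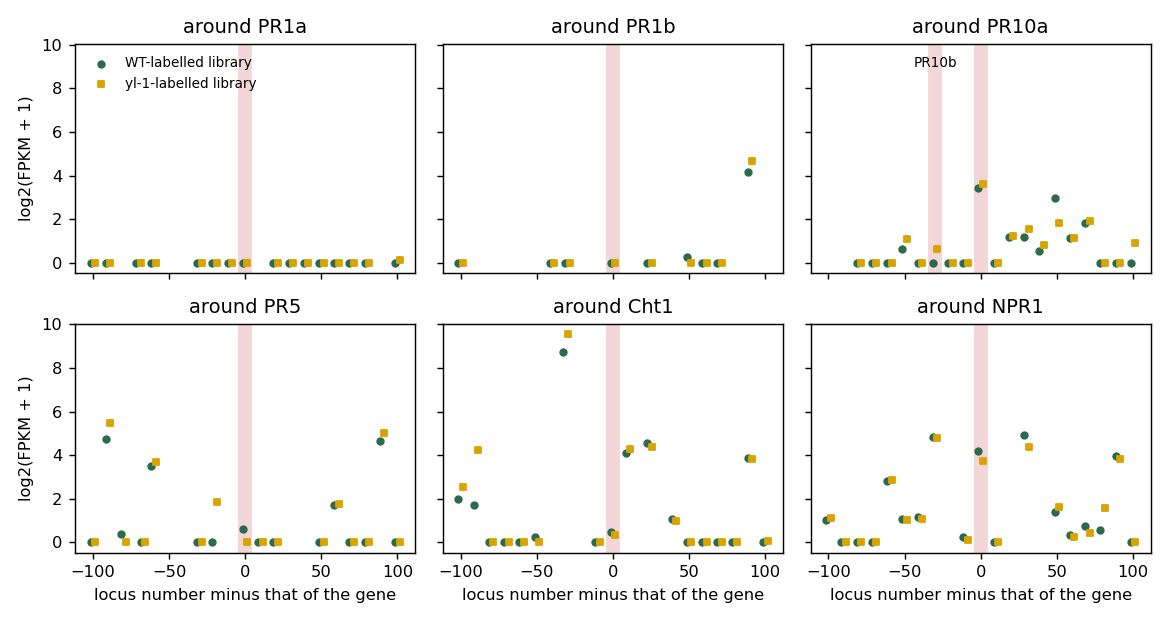
Level as log2(FPKM + 1) of the entries within 100 locus numbers of a gene, in the WT-labelled library (green circles) and the *yl-1*-labelled library (yellow squares), each set 1.5 units to its side of the true number so that both can be seen. The gene itself lies in the pink band at 0, and *PR10b* is marked in the panel of *PR10a*. The entries around *PR1a* lie at or near 0, and those around *NPR1* reach 29.3 FPKM.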

How the data were processed

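Poly(A) RNA of leaves was sequenced from 1 wild-type and 1 *yl-1* library. The authors deposited FPKM values. The submitters' processing notes name TopHat, Cufflinks and Cuffdiff. No source used here gives their versions, the genome build, the annotation or the treatment of fragments with several matches. Columns were assigned by their names, and 0 were left unused. Depth is unknown, so precision cannot be given.

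Entries were found by locus ID, split at commas. Log2((FPKM + 1) ratio) was formed for entries with a mean of at least 1 FPKM, and 2-fold differences were counted. No test was possible. The 7 genes are all named. Other IDs are named only where a source pairs them with a name, where they share an entry, or, for at most 2, as neighbours past 2-fold. The genes and the 8 lists (66 IDs) were chosen with earlier results of these data known. Of 41981 locus IDs, 0 matched the RefSeq table of assembly ASM3414082v1, so no sequence or coordinate is printed. Counting was tested on simulated data without noise. Changes were planted there only in entries more abundant than any of the 7 genes, so counting at their levels was not tested. Alternatives were other pseudocounts, scalings, filters and thresholds. Python 3.11.15, numpy 2.4.6, pandas 2.3.3 and matplotlib 3.10.9 were used.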

Additional observations from a re-analysis of the deposited data

How the results depend on the processing

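No paired analysis was possible because each genotype has 1 library. The count of the 7 genes past 2-fold stayed at 0 in each direction under all 12 alternatives. Some of these, such as the 4-fold threshold, could only keep it at 0. The 5 genes with a mean under 1 FPKM entered only without the filter. There the added 1 FPKM kept values under 1 FPKM within 2-fold, so the stable count says nothing about these genes. A log2 value was taken as moved beyond 0.1, since no replicate spread exists. With the same FPKM sum, the log2 ratio was 0.014 for *PR10a* and -0.59 for *NPR1*, and the list medians were -0.35 (*NPR1* relatives and partners), -0.22 (glucanases), -0.069 (thaumatin-like, from 0.040) and -0.030 (salicylic acid signalling). With the ratio of low entries as the unit, an alternative chosen after seeing the data, the values in that order were -0.0066, -0.61, -0.37, -0.24, -0.085 and -0.053. The thaumatin-like and glucanase medians each rest on 3 entries. For the thaumatin-like list, 2 of the 3 were listed at 0 in 1 library. Its median is the value of the remaining entry, at 2.32 and 2.41 FPKM. The thaumatin-like median was -0.012 with the same upper quartile, and the means of the thaumatin-like and *NPR1* relatives lists were -0.18 and -0.015. Over all entries, 364 higher and 531 lower became 586 and 782 (pseudocount 0.1), 611 and 818 (0.01), 104 and 191 (5), 154 and 268 (mean of at least 5 FPKM), 1122 and 1393 (1.5-fold) and 63 and 99 (4-fold). The share of higher among these calls was 40.7%, 29.6% with the same sum and 28.4% with the low-entry unit, under which the median of all entries compared was -0.12 and -0.14. The cause was not tested. Unknown depth limits every value under 1 FPKM.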

Other observations

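The loci around the 7 genes, taken as entries whose locus number lies within 100 of a gene on the same chromosome, made up 92 further entries. Of these, 51 were listed at 0 in both libraries and 29 reached a mean of 1 FPKM, with a median log2 ratio of 0.087. Of these 29, 2 were past 2-fold higher and 1 lower in the *yl-1*-labelled library, beside 2.50% and 3.65% of all 14559 entries compared. With no pseudocount, chosen after seeing the data, the counts were 3 and 2, and with 5 FPKM 1 and 0. Near *Cht1*, LOC_Os06g50970 stood at 2.33 FPKM in the WT-labelled library and 17.6 FPKM in the *yl-1*-labelled library, a log2 ratio of 2.48. Near *PR10a*, LOC_Os12g36930 stood at 6.78 and 2.54 FPKM, a log2 ratio of -1.14. The files do not pair these IDs with gene names. The third lay near *PR5*, at 0 and 2.59 FPKM, and is the thaumatin-like entry given above. The surroundings of the genes differed in how much was read. Around *NPR1*, 9 of 17 entries reached 1 FPKM, and around *PR1a* 0 of 15, beside 34.5% of all entries. Several entries around *PR1a* are on the *PR1*-like list, so this count overlaps with that list. Of the 9 entries near *NPR1*, 0 were past 2-fold, but 1 at 0.501 and 1.96 FPKM was past it with a pseudocount of 0.1 or 0.01 FPKM or none.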
